A study of Oryza sativa with 2 samples.

Results

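The genes described here are a set of entry genes of the phenylpropanoid pathway that carried a peak of the rice transcription factor OsbHLH002. They are 8 of the 14709 genes in the deposited list: 5 genes described as phenylalanine ammonia-lyase (PAL), 1 cytochrome P450 gene entered as cinnamate 4-hydroxylase (C4H) and 2 AMP-binding enzyme genes entered as 4-coumarate:CoA ligase (4CL). They were taken by gene identifier from that list, which names only genes whose start lay near a called peak. Having a peak is therefore a condition of entry and not a result. The list's descriptions give the PAL name itself, but only the enzyme class for the C4H and 4CL genes, whose names rest on general knowledge of their identifiers.

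The plants were transgenic rice in which the OsbHLH002 mutant Osbhlh002-1 carried gOsbHLH002-3FLAG, a genomic copy of OsbHLH002 joined to the FLAG epitope tag. Chromatin was fixed with 1% formaldehyde for 15 min and sheared to 300 to 500 bp. FLAG antibody was used to precipitate 1 library (the IP), and 1 input library came from the same genotype. The study asked where OsbHLH002 binds in the genome, and its title places the protein in secondary cell wall formation together with OSH1. Neither label nor protocol names the tissue, and plants without the tag were not analysed here. A peak from whole tissue does not tell apart strong binding in a few cells and weak binding in many.

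PAL removes ammonia from phenylalanine to give cinnamate, C4H adds a hydroxyl group to give p-coumarate, and 4CL joins p-coumarate and related acids to coenzyme A. These steps feed lignin, which stiffens secondary walls, and also flavonoids and the hydroxycinnamate esters of grass cell walls. PAL and 4CL are encoded by gene families in plants, so single members can differ in tissue and in the branch they serve.

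The PAL genes LOC_Os02g41670 and LOC_Os02g41650 and the 4CL gene LOC_Os06g44620 had the highest enrichment of the 8, with folds of 7.77, 6.78 and 5.82. The C4H gene LOC_Os05g25640 had the lowest, with a fold of 2.32. Fold here is the authors' deposited ratio of the IP signal to the local background, taken at the summit or highest point of the peak. Over all 12487 distinct peaks the median fold was 3.13 and the quartiles were 2.57 and 4.10, so 4 of the 8 genes lay above the upper quartile, 3 between the quartiles and 1 below them. The median of the 8 was 4.08, and 6 of the 8 had a fold of 3 or more, as did 54.5% of all entries. All 8 had a q of 0.05 or less, which 90.1% of all entries also had. At a fold of 4 or more stood 4 of the 8, against 27.6% of all entries.

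**Figure D1:**
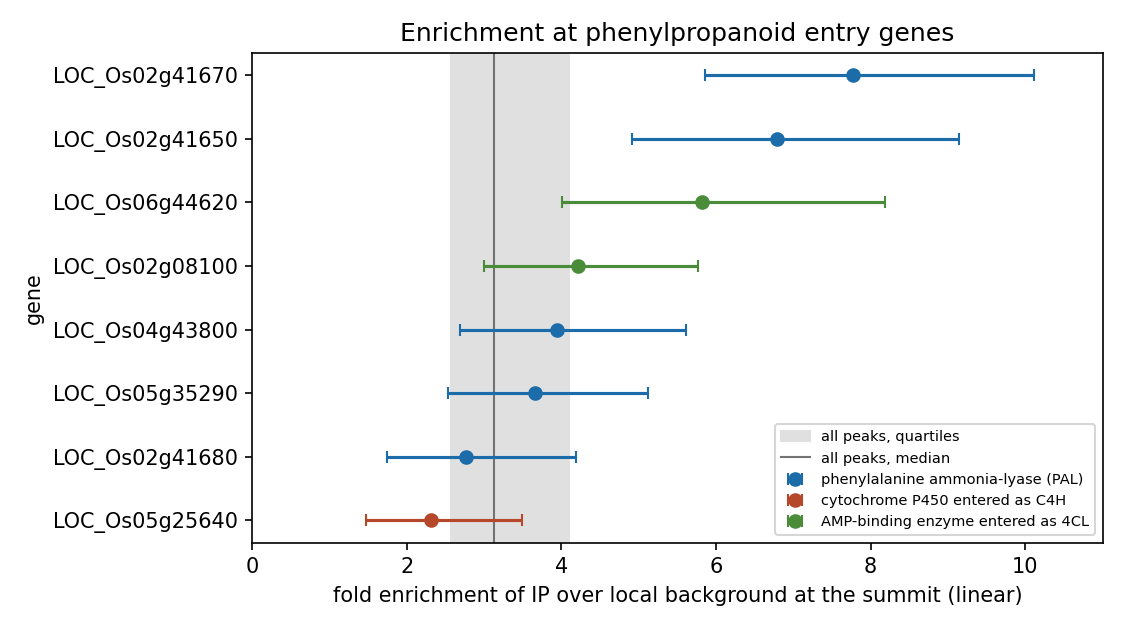
Fold enrichment (linear axis) at the peak summit of each of the 8 genes, in 1 IP library. Points are the deposited folds, bars the 95% exact Poisson intervals of the IP fragments (counting error only), the grey band the quartiles of all peaks (2.57 to 4.10) and the line their median (3.13). The bars of 3 genes, at the top of the plot, lie wholly above that median.

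The tandem PAL genes with an entry on chromosome 2 held both the strongest peaks of the 8 and one of the weakest. LOC_Os02g41630, also entered as PAL and close to them in numbering, had no entry, though it may still have a called peak. The cluster here means the PAL genes with an entry. LOC_Os02g41670 is a minus-strand gene at 24992827 to 24995414, with a peak of 601 bp at 24995399 to 24995999. At its summit stood 53 IP fragments over a background of 5.95 fragments. The authors' −log10 q was 28.7. By fold it ranked 364 of 12487, or 2.92% down the ranked list. A rank here counts the peaks of higher value and the gene's own peak, so peaks tied with it are left out.

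LOC_Os02g41650, also on the minus strand, occupies 24985255 to 24989388. Its peak, from 24988873 to 24989976, was the widest of the 8 at 1104 bp, where the median peak of the list was 445 bp wide. The summit held 41 IP fragments over a background of 5.19, the median background of the list, with a −log10 q of 20.2. Its rank by fold was 605 of 12487.

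LOC_Os02g41680 (25006467 to 25009121, minus strand) had a much lower peak from 25008862 to 25009327. That summit held 20 IP fragments, the median of all peaks, over a background of 6.61. The fold was 2.76 and the −log10 q 3.18, and by fold it ranked 63.4% down the list. The enrichment of LOC_Os02g41670, as the ratio of fragments to background, was 2.94 times that of LOC_Os02g41680 (95% exact binomial interval 1.73 to 5.20), and that of LOC_Os02g41650 was 2.61 times (1.49 to 4.70). Between the pair of strong genes the ratio was 1.13 (0.736 to 1.74), so their order was not settled by the count of fragments. These intervals treat the backgrounds as fixed and cover counting error only.

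The 3 peaks of the cluster spanned 20455 bp from the start of the first to the end of the last. The starts of LOC_Os02g41650 and LOC_Os02g41670 were 6026 bp apart and their summits 5978 bp, and 13707 bp separated the starts of LOC_Os02g41670 and LOC_Os02g41680. Peak numbers rose along each chromosome in the list, and 2 numbers between the peaks of LOC_Os02g41650 and LOC_Os02g41670 had no entry. If numbers were given without gaps, 2 further called peaks lay in the 5422 bp between them, which hold the body of LOC_Os02g41670 outside its peak. Their heights were not analysed here. No number was missing in the 12862 bp between LOC_Os02g41670 and LOC_Os02g41680. Thus 5 numbers fell in the span of the cluster. Outside that span, 1 number had no entry in the 5725 bp before the peak of LOC_Os02g41650, which hold the rest of that gene. Over the 7081 runs of 5 numbers with a listed peak at either end, the median span was 49547 bp (quartiles 28855 and 89843 bp). The genes of the cluster were taken as neighbours that each carry a listed peak, a choice that itself favours a short span. The difference in span was not tested.

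**Figure D2:**
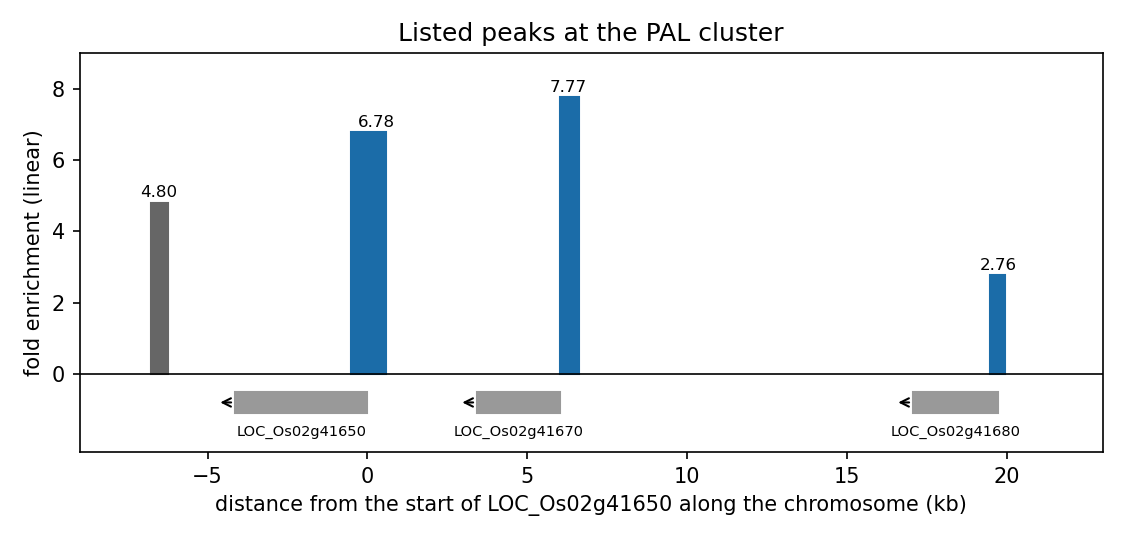
Listed peaks at the PAL cluster of chromosome 2, with distance along the chromosome from the start of LOC_Os02g41650 (kb) against fold enrichment (linear axis). Blue bars are the peaks of the 3 PAL genes at their true width, the dark grey bar is the peak of the transposon gene LOC_Os02g41640, and arrows on the grey boxes show the direction of each gene. The bars of LOC_Os02g41650 and LOC_Os02g41670 (6.78 and 7.77) stand well above that of LOC_Os02g41680 (2.76).

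The PAL genes on other chromosomes had intermediate peaks. LOC_Os04g43800 occupies 25926988 to 25929732 of chromosome 4, minus strand, with a peak from 25929683 to 25930518. Its summit held 29 IP fragments over 6.61, a fold of 3.94 with a −log10 q of 8.10. LOC_Os05g35290 occupies 20953410 to 20955923 of chromosome 5, minus strand, with a peak from 20956016 to 20956642, wholly upstream of the gene. It held 32 IP fragments over a higher background of 8.02, a fold of 3.66 with a −log10 q of 7.98. These PAL genes had nearly the same enrichment (ratio 1.10, 95% exact binomial interval 0.642 to 1.88), and the interval allows a difference of either sign.

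The C4H enzyme is a membrane-bound cytochrome P450. Its gene here, LOC_Os05g25640, occupies 14899987 to 14904546 of chromosome 5, minus strand. Its peak, at 14905032 to 14905670, was wholly upstream. The summit held 21 IP fragments over a background of 8.50, from 18 input fragments. The fold was 2.32 and the −log10 q 2.23, the weakest of the 8. By fold it ranked 85.3% down the list, but by IP fragments 41.5%, with ties left out. Its background of 8.50 was high, against an upper quartile of 6.38 over all peaks, which lowers the fold for a given count. This peak was also the only one of the 8 placed on a second gene, LOC_Os05g25650, an expressed protein gene on the plus strand whose start lay 2119 bp away. The summit was 616 bp upstream of the C4H gene and 1503 bp upstream of the other. The remaining 7 genes were each alone on their peak, as were 70.4% of all entries.

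The 4CL genes had peaks at different places, one across the gene start and the other far upstream. LOC_Os06g44620 (chromosome 6, 26943094 to 26949889, minus strand) had a peak from 26949525 to 26950085 across its start. The summit held 31 IP fragments over a background of 4.50, close to the genome-wide level of 4.44, with a −log10 q of 13.6. LOC_Os02g08100, on chromosome 2 from 4280499 to 4285931, was the only gene of the 8 on the plus strand. Its peak, from 4278292 to 4278890, lay so far upstream that 391 of its 599 bp fell in the window of 2000 bp used to place peaks on genes.

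By IP fragments the order of the 4CL genes was the reverse of that by fold. The LOC_Os02g08100 summit held 37 IP fragments over 8.02, a fold of 4.21 with a −log10 q of 11.1. It ranked 23.5% down the list by fold and 8.43% by fragments, with ties left out. The ratio of enrichment of LOC_Os06g44620 to LOC_Os02g08100 was 1.49 (95% exact binomial interval 0.896 to 2.47). Between the LOC_Os02g08100 peak and the next listed peak 19862 bp downstream, 4 peak numbers had no entry. That stretch holds the whole gene, so further called peaks in it cannot be told from the list.

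**Figure D3:**
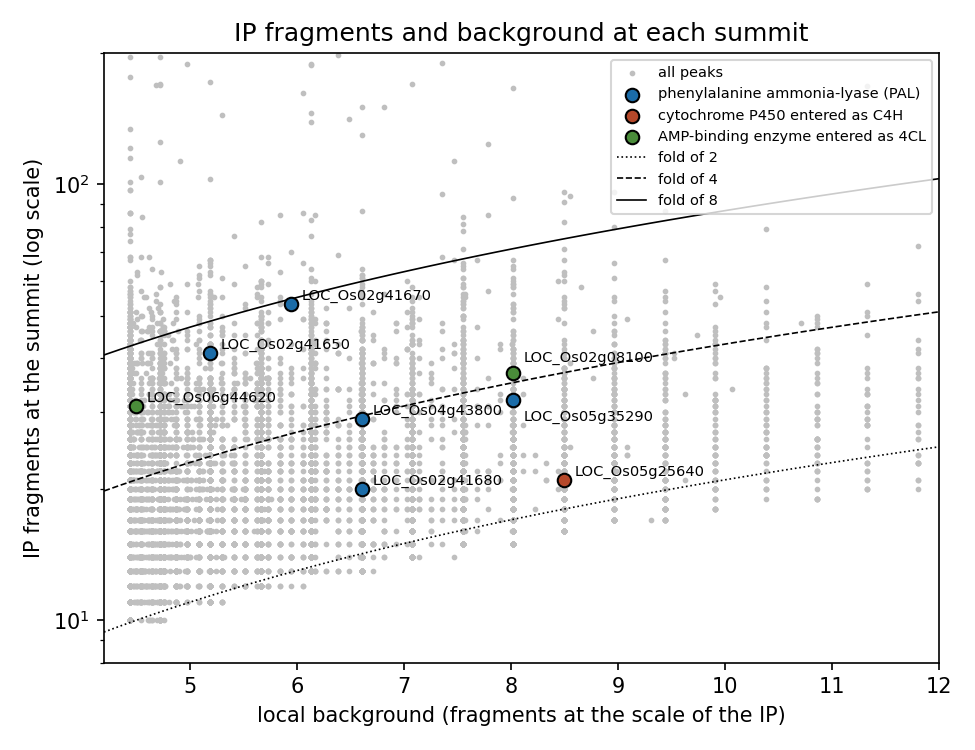
Local background (fragments at the scale of the IP) against IP fragments at the summit (log axis) for the peaks of the list in the plotted range (12388, with 97 outside it), as grey points, and the 8 genes, as coloured points. Lines mark folds of 2, 4 and 8. The C4H gene LOC_Os05g25640 has the highest background of the 8 (8.50) and lies near the line for a fold of 2, and LOC_Os02g41670 (53 fragments) lies near that for 8.

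The median number of IP fragments at the 8 summits was 31.5, against 20 over all peaks, and 7 of the 8 lay above 20. The median background was 6.61 against 5.19, and 6 of the 8 had a background above 5.19. The number of IP fragments set limits on the order. On the deposited scale the 95% exact Poisson interval of the fold was 5.86 to 10.1 for LOC_Os02g41670, 4.91 to 9.15 for LOC_Os02g41650 and 4.01 to 8.18 for LOC_Os06g44620. It was 1.74 to 4.19 for LOC_Os02g41680 and 1.47 to 3.49 for LOC_Os05g25640. With the backgrounds taken as fixed, no gene differed from its neighbour in the order beyond these intervals (0 of 7 neighbouring pairs). On that footing 8 of all 28 pairs did not overlap. By the ratio of enrichment, also with fixed backgrounds, the interval excluded 1 in 14 of the 28 pairs. Of the 8 pairs that did not overlap, 5 set LOC_Os02g41670 against each of the 5 lowest genes.

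The input count behind the background could be recovered for 7 of the 8, and adding its error widened the intervals. For LOC_Os02g41650, whose background rested on 11 input fragments, the ratio of fragments to background was 7.90 with an interval of 3.99 to 17.0. For LOC_Os02g41670, with 55 input fragments in a 1 kb window, it was 8.91 (5.99 to 13.2). For LOC_Os05g25640 it was 2.47 (1.25 to 4.92), and for LOC_Os02g41680 it was 3.03 (1.45 to 6.48). The interval of LOC_Os02g41680 thus overlapped those of both strong PAL genes of its cluster. Among these 7 genes the interval of LOC_Os02g41670 stayed apart from that of LOC_Os05g25640, and every other pair overlapped. These are exact binomial intervals, and since a summit is picked as the highest point of its peak, its count is biased upward. There was 1 IP library, so no value here has a replicate.

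All 8 summits lay upstream of the start of their gene, as did 63.2% of all entries. In the PAL family all 5 were close to the start: 17 bp upstream for LOC_Os02g41680, 197 bp for LOC_Os05g35290, 219 bp for LOC_Os04g43800, 247 bp for LOC_Os02g41670 and 295 bp for LOC_Os02g41650. With LOC_Os06g44620 at 93 bp, 6 of the 8 lay 1 to 300 bp upstream, against 23.8% of all entries, a window chosen after the distances were seen. LOC_Os05g25640 (616 bp) and LOC_Os02g08100 (1961 bp) lay outside it.

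The peaks reached into the genes to different extents. For LOC_Os02g41670 and LOC_Os04g43800, 97.3% and 94.0% of the peak lay before the start. For LOC_Os02g41650 it was 53.3%, for LOC_Os02g41680 44.2% and for LOC_Os06g44620 34.9%. The other three peaks ended before the gene began. All 8 were wider than the median peak, from 466 to 1104 bp. In 3 genes (LOC_Os04g43800, LOC_Os05g35290 and LOC_Os02g41680) the rest of the gene lay in a stretch with no missing peak number, so, if numbers had no gaps, no other peak was called inside them.

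**Figure D4:**
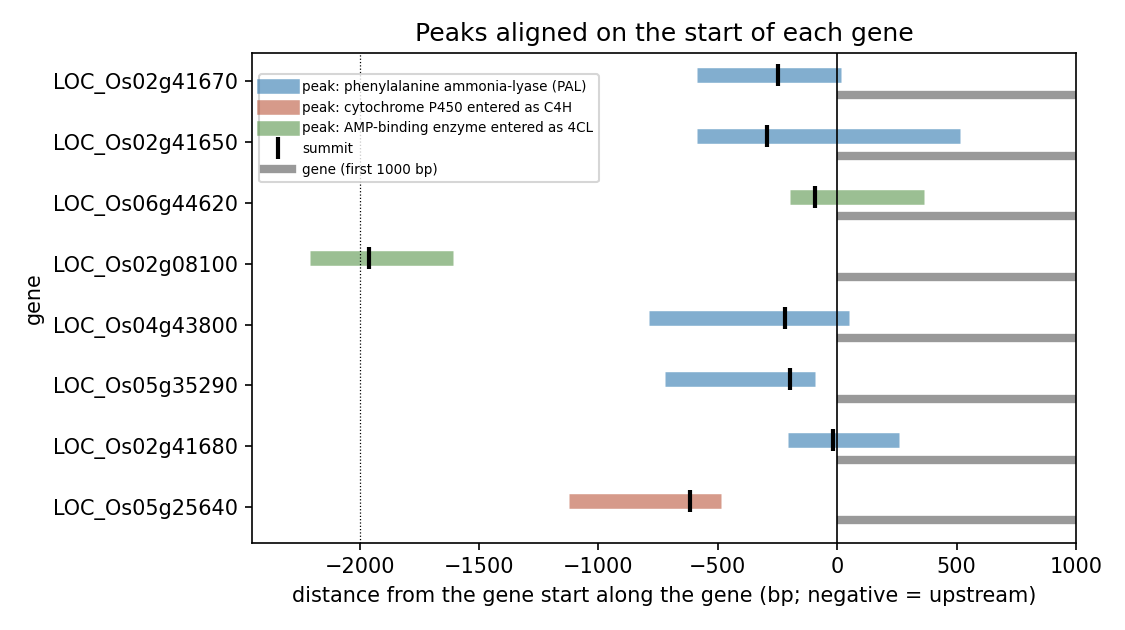
Peaks of the 8 genes (coloured bars) aligned on the start of each gene, with distance along the gene in bp and upstream as negative. Black ticks are summits, grey bars the first part of each gene, and the dotted line the far edge of the 2000 bp window. The 5 PAL summits lie between 17 and 295 bp upstream, and the summit of LOC_Os02g08100 lies at 1961 bp, near the edge.

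Genes next to the 8 also had listed peaks. Within 10 kb of a start of the 8, or on the same peak, the list held 9 other genes. LOC_Os05g25650 is on the peak of the C4H gene itself, so its fold could not differ from that gene's. Of the 9, 1 had a higher fold than the gene it adjoined. That was LOC_Os05g35274, an RNA recognition motif gene 4554 bp from the PAL gene LOC_Os05g35290 by their starts, with a fold of 4.21 and its summit 2 bp inside the gene. By the PAL gene LOC_Os04g43800, the expressed protein genes LOC_Os04g43790 and LOC_Os04g43810 had folds of 3.86 and 2.39. The transposon gene LOC_Os02g41640, 8684 bp from LOC_Os02g41650, had a summit 2147 bp downstream of its own start and a fold of 4.80.

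LOC_Os05g35266, a galactosyltransferase gene near LOC_Os05g35290, had a fold of 2.76, and the LSM domain gene LOC_Os02g08090, next to the 4CL gene LOC_Os02g08100, had 2.55. A single peak with a fold of 1.97 was placed on LOC_Os06g44630 and LOC_Os06g44640, beside LOC_Os06g44620. Its −log10 q was 0.871, which is a q above 0.05.

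The 8 genes are not all the entry genes with a peak. The list of entry genes, written from general knowledge of rice identifiers, held 18: 9 PAL, 4 C4H and 5 4CL. Of these, 12 had an entry: 5 of the PAL, 3 of the C4H and 4 of the 4CL genes. The 4 outside the 8 had a median fold of 2.84, below that of the 8 (4.08), although each was above the C4H gene LOC_Os05g25640 (2.32). Over all 12 the median was 3.51, and 7 (58.3%) had a fold of 3 or more, near the 54.5% of all entries, so the median of the 8 reflects in part which genes were taken.

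These 4 peaks lay at varied distances. The cytochrome P450 gene LOC_Os02g26770, entered as C4H, had its summit 142 bp upstream, where 31 IP fragments over 8.50 gave a fold of 3.37. LOC_Os02g26810, also entered as C4H, had a fold of 2.66 at a distance of 1390 bp upstream. The AMP-binding genes LOC_Os02g46970 and LOC_Os08g34790, entered as 4CL, had folds of 2.89 and 2.79, and their summits lay 2067 and 1654 bp downstream of the start. Thus 3 of 3 C4H and 2 of 4 4CL summits were upstream. Entry identifiers without an entry are LOC_Os02g41630, LOC_Os04g43760, LOC_Os11g48110 and LOC_Os12g33610 (entered as PAL), LOC_Os01g60450 (C4H) and LOC_Os08g14760 (4CL). A gene without an entry may still have a called peak, since 9584 of the numbers up to 22071 have no entry.

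The later genes of the monolignol branch, which turn the coenzyme A esters into lignin precursors, had peaks in the same range of fold. Of the 17 in the list fixed for them, 10 had an entry, on 9 distinct peaks, with a median fold of 4.72 against 3.13 over all entries. A fold of 3 or more was found in 9 of the 10, and in 54.5% of all entries. The acyl transferase genes LOC_Os04g42250 and LOC_Os02g39850, entered as hydroxycinnamoyl transferases that act on the product of 4CL, had folds of 5.61 and 4.30. Caffeoyl-CoA O-methyltransferase genes, whose enzymes methylate a ring hydroxyl, had 5.33 (LOC_Os06g06980), 3.24 (LOC_Os08g38900) and 5.15 (1 peak on LOC_Os08g38910 and LOC_Os08g38920). LOC_Os08g34280, described as cinnamoyl-CoA reductase, had 2.75, and the dehydrogenase gene LOC_Os02g56460, entered as another reductase of this kind, had 5.35.

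At the end of the branch, LOC_Os08g06100, an O-methyltransferase gene, had a fold of 3.49 and the dehydrogenase gene LOC_Os02g09490, entered as cinnamyl alcohol dehydrogenase, had 3.02. In this later list 6 of 10 summits were upstream and 3 lay 1 to 300 bp upstream, near the 63.2% and 23.8% of all entries. None of the identifiers entered as p-coumaroyl ester 3-hydroxylase or ferulate 5-hydroxylase, cytochrome P450 enzymes that add hydroxyl groups to the ring, had an entry (0 of 5). As in the entry list, a gene without an entry may still have a called peak. The share of all rice genes with an entry was not worked out.

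Set against their enzyme classes, the C4H gene was among the weaker and the 4CL gene LOC_Os06g44620 among the stronger. LOC_Os05g25640 ranked 76 of 92 cytochrome P450 genes by fold; the other 91 had a median of 3.07, and 51 of their summits were upstream. The strongest of that class was LOC_Os03g55240, with a fold of 7.75 at a summit 1887 bp downstream of the start. Among 19 AMP-binding genes, LOC_Os06g44620 ranked 2 and LOC_Os02g08100 ranked 8. The leader, LOC_Os01g46750, had a fold of 5.89 at a summit 141 bp upstream, and the 17 AMP-binding genes other than these 4CL genes had a median fold of 3.45, with 10 summits upstream. With 1 library and lists chosen with earlier results known, none of these differences between groups was tested.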

How the data were processed

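The submitters' processing notes name Bowtie2 2.4.2 and MACS2 2.2.7.1 as well as Picard and SAMtools. Genome build, annotation release, read filters, peak threshold and library totals: not given in the sources used here. What the authors deposited was 1 list of IP peaks joined to genes whose start lay within 2000 bp of a peak. Its fold is a ratio of IP to background on a linear scale, p and q values are deposited as −log10, and the deposited score was used for no result. Coordinates are as deposited, counted from 1.

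IP fragments and background were recovered by solving the deposited fold, (pileup + 1) / (background + 1), together with the Poisson p, for a whole-number pileup. A single solution was found for 12485 of 12487 peaks, and the other 2 were left out of fragment values. The method was tested on simulated data. The lowest pileup was 10 fragments. One input fragment weighed 0.472 IP fragments, which makes the input 2.12 times the depth of the IP. Intervals are at 95% and cover counting error only: PCR copies without molecular identifiers are not independent molecules.

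The 8 genes and all gene lists were chosen with earlier results of these data known. Named were the 8 genes, all list genes with an entry, listed genes within 10 kb of a start or on the same peak, and the leader of each enzyme class. The RefSeq gene table (39387 entries) matched 0 of the 8 identifiers, and no sequences are shown. Alternatives were the added 1, the ranking, the fold used as a call and the start used. Python 3.11.15, SciPy 1.17.1 and pandas 2.3.3 were used.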

Additional observations from a re-analysis of the deposited data

How the results depend on the processing

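The fold of each of the 8 genes without the added 1 ran from 2.47 to 8.91 and stayed within its counting interval. The count of genes past the fold went from 6 at a fold of 3 to 8 at a fold of 2 (95.3% of all entries) and 4 at a fold of 4. The rank of each gene, as a share of the list, was also compared. It stayed within the range its counting interval allows over gene entries, over peaks with a q of 0.05 or less and over peaks with an upstream summit. By IP fragments the rank left that range for LOC_Os02g08100 (23.5% by fold, 8.43% by fragments). Peaks tied at the same count are left out of that rank, and whether it left the range with ties counted was not tested. Within that range, but by over 1.5 times, the share went from 34.7 to 13.6% for LOC_Os05g35290, from 27.9 to 18.0% for LOC_Os04g43800, from 85.3 to 41.5% for LOC_Os05g25640 and from 8.37 to 14.9% for LOC_Os06g44620. The summit stayed upstream for all 8 by the nearest listed start, and 6 lay close upstream with a window of 500 bp, an alternative chosen after seeing the data. The median of the 8 was 4.08 with 1 value per peak and with a q of 0.05 or less, since all 8 passed and none shared a peak with another of the 8. No paired analysis was possible because there was 1 library of each kind, and no replicate could be left out. Summits of 20 to 53 fragments limit the precision of every fold.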
